A study of Mus musculus with 3 samples.

Results

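Tendon lineage regulators and markers were described as 8 genes: the transcription factors Scx, Mkx and Six2, the Six2 cofactors Eya1 and Eya2, the membrane protein Tnmd and the matrix proteins Cilp and Cilp2. They were matched by Entrez gene ID, and 7 of the 8 were listed among the 16621 genes with an estimate above 0 in at least 1 library; Cilp2 was listed in none. The cells were stem cells derived from tail tendon of C57BL/6 mice aged 10 weeks, a progenitor population grown out of tendon, kept untreated in culture and collected at passage 4. The WT group was wild type and held 1 library, and the DF508 group carried the CFTRΔF508 mutation of the anion channel gene and held 2 libraries (replicates 1 and 2). Poly(A) RNA was sequenced. No label ties the DF508 pair to separate mice, pools or cultures, so a p-value here covers the spread of these samples alone, and that spread may be technical.

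Scleraxis (Scx), a basic helix-loop-helix factor, marks tendon progenitors and drives tendon differentiation, and Mohawk (Mkx) is an atypical homeobox factor that maintains tendon collagen expression. Tenomodulin (Tnmd) is a type II membrane glycoprotein of mature tendon cells and a known target of Scx. Six2, Eya1 and Eya2 belong to a network in which Six-family homeobox factors bind DNA and Eya proteins act as their coactivators, and they are expressed in limb connective tissue. Cilp and Cilp2 are secreted glycoproteins first known from cartilage and also found in tendon and ligament.

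The libraries held 5241826 to 5298326 estimated counts each, and levels are given either as the count scaled to that total (CPM) or, between genes, as FPKM, which also divides by gene length. All 9 tendon cell markers examined (Scx, Mkx, Tnmd, Thbs4, Fmod, Col1a1, Col1a2, Tnc and Dcn) were listed in every library. Their levels summed to 11346 to 12184 FPKM, mostly from matrix genes. In WT, Thbs4 and Col1a1 gave 6460 and 2305 of the 11346 FPKM, and Scx and Mkx gave 2.71 and 26.0. Thbs4, a tendon matrix glycoprotein, ranked 1 of all listed genes by mean FPKM and Col1a1, the main fibrillar collagen chain, ranked 7. The skeletal muscle factors Myod1, Myog, Myf5 and Pax7, the endothelial genes Pecam1 and Cdh5, and the epithelial genes Krt5, Krt14 and Cdh1 were listed in no library. Of the same lists, the endothelial receptor gene Tek had 77, 69 and 65 counts in WT and DF508 replicates 1 and 2, the muscle filament gene Des had 4, 7 and 10, the endothelial Kdr had at most 1, and the epithelial Epcam had 3 in replicate 1 alone. The highest pericyte, bone and cartilage markers were Pdgfrb (81.9 FPKM on average), Runx2 (19.6 FPKM, sharing reads) and Sox9 (16.0 FPKM). The bone genes Ibsp and Bglap and the cartilage genes Acan and Matn1 were listed in no library. Alpl, also of bone, had 58, 126 and 97 counts in WT and DF508 replicates 1 and 2, and Sp7 had 0, 4 and 6. In the same order the cartilage gene Col2a1 had 3, 4 and 13 counts, and Col9a1 had 1, 0 and 0. Among pericyte genes, Cspg4 had 130, 192 and 193 counts, Mcam 18, 19 and 4, and Rgs5 0, 5 and 2. Myeloid markers differed between libraries: their 8 genes summed to 71.3 FPKM in WT, 107 FPKM in DF508 replicate 1 and 483 FPKM in DF508 replicate 2, and all 8 were highest in the last.

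The members spanned a wide range of levels. Cilp was the highest, with 839 FPKM in WT, 609 FPKM in DF508 replicate 1 and 658 FPKM in DF508 replicate 2, and ranked 68 of 16621 genes. Tnmd followed with 70.2, 82.5 and 145 FPKM in the same order of libraries, at rank 563. Mkx had 26.0, 22.1 and 22.8 FPKM and Six2 22.3, 15.9 and 16.8 FPKM, and these ranges overlapped. Eya1 (5.95, 4.96 and 7.44 FPKM) and Eya2 (5.63, 3.52 and 6.27 FPKM) also overlapped. Scx was the lowest listed member, with 2.71, 1.88 and 2.22 FPKM, a mean level above that of 35.3% of the listed genes. Thus the effector genes Cilp and Tnmd stood far above the transcription factors, and each other neighbour in this order was separated in its ranges from the next.

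**Figure D1:**
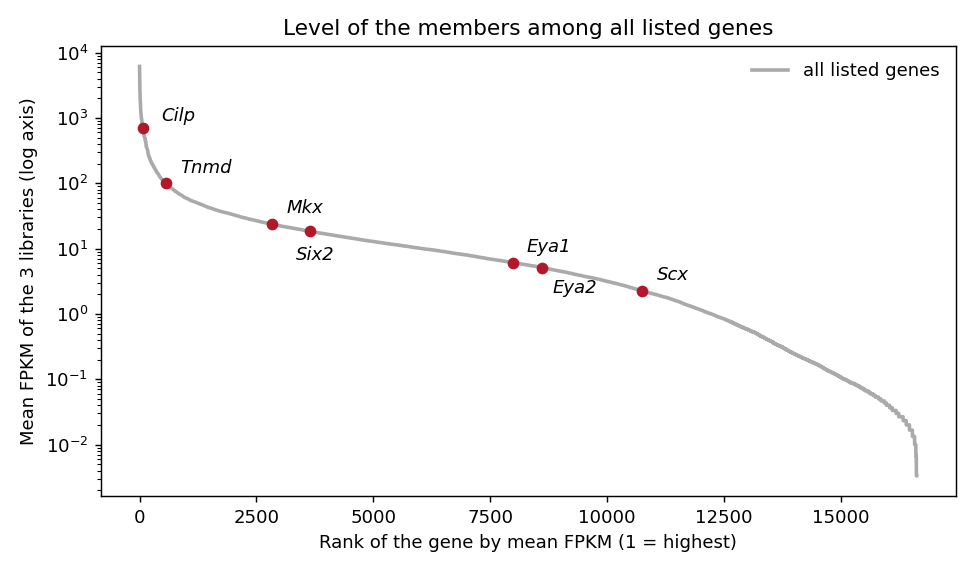
Mean FPKM of the 3 libraries (log axis) against rank for all 16621 listed genes (grey line), with the 7 listed members as red points. Cilp is near the top at rank 68, Mkx and Six2 lie in the upper part at ranks 2837 and 3650, and Scx is at rank 10746.

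DF508 was compared with WT to ask whether tendon lineage transcripts were altered in mutant tendon cells. All 7 listed members passed the filter on low counts. Of these, 1 fell, Cilp, and none rose (edgeR quasi-likelihood test across all genes, Benjamini-Hochberg adjusted p under 0.05, here the threshold for a change); by the same test 1.39% of 12888 genes were called, 0.9% as lower and 0.489% as higher. The median log2 fold change was -0.29 over the 7 members and 0.01 over all genes tested. By side alone, both DF508 libraries were below WT for 4 members (Scx, Mkx, Six2 and Cilp) and above it for 1, Tnmd. Of the 13183 genes averaging 1 CPM or more with counts in all 3 libraries, 29.6% were below in both and 43.4% above in both. No member differed from WT by 1.5-fold or more in both mutant libraries, against 8.25% of those genes. All members but Tnmd, 6 of 7, were lowest in DF508 replicate 1, and 3 (Tnmd, Eya1 and Eya2) were highest in replicate 2. Of the 13235 genes averaging 1 CPM or more, with counts in every library or not, 27.4% were lowest in replicate 1 and 35.5% highest in replicate 2. With 1 WT library, the test takes its spread from the DF508 pair.

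**Figure D2:**
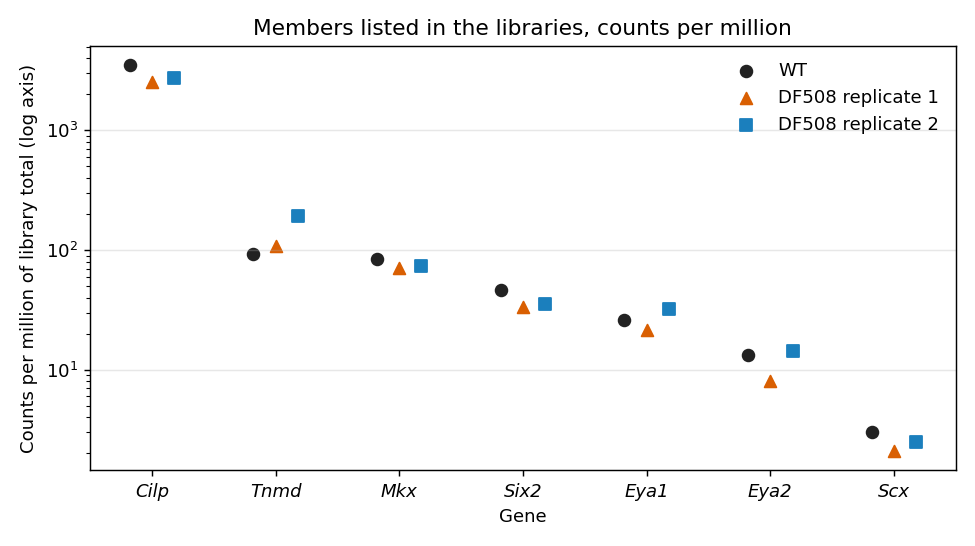
CPM (log axis) of the 7 listed members in WT (black circles), DF508 replicate 1 (orange triangles) and DF508 replicate 2 (blue squares). Tnmd is highest in DF508 replicate 2 (192 CPM), and Cilp, Mkx, Six2 and Scx are highest in WT.

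Scx (gene ID 20289) was barely detected. Its reads numbered 16 in WT, 11 in DF508 replicate 1 and 13 in DF508 replicate 2, or 3.02 CPM in the WT library and a mean of 2.29 ± 0.268 CPM in the DF508 pair (SD, n = 2, as for each DF508 mean below). WT was highest, but the ratio to WT was 0.695 in replicate 1, with an exact 95% interval of 0.292 to 1.59, and 0.82 in replicate 2, with an interval of 0.363 to 1.82; these intervals rest on the split of the counts and cover counting error only. A difference of this size was not detectable at this depth (log2 fold change -0.44 ± 0.63 SE, edgeR adjusted p = 0.853). Scx is annotated inside Bop1, a ribosome biogenesis gene, which had 195, 171 and 191 counts. The strand setting of the counting is not stated, so reads of unspliced Bop1 and of Scx cannot be told apart.

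Mkx (gene ID 210719) had 443 counts in WT and 371 and 384 in DF508 replicates 1 and 2. Both DF508 libraries lay below WT and close to each other, at 72 ± 1.7 CPM against 83.6 CPM in WT. The ratio was 0.847 (counting interval 0.735 to 0.974) in replicate 1 and 0.875 (0.762 to 1.01) in replicate 2, and replicate 2 stood to replicate 1 at 1.03 (0.894 to 1.2), within counting error. Mkx did not pass the threshold (log2 fold change -0.26 ± 0.11 SE, edgeR adjusted p = 0.392).

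Among genes linked to these 2 factors no change was called outside 1 ligand. Of 9 tested helix-loop-helix partners, relatives and Id inhibitors of Scx none passed (median log2 fold change -0.03, with 6 negative), including Id3, an inhibitor that sequesters E proteins (98.4 FPKM on average), and Id1 (74.3 FPKM). Of 4 tested Iroquois genes, the homeobox relatives of Mkx, none passed (median -0.21), and the highest were Irx5 (5.91 FPKM) and Irx3 (5.71 FPKM, sharing reads). Of 17 tested genes of signals known to act upstream of tendon factors, 1 fell and none rose (median -0.04), namely the BMP ligand Gdf6, with 89 counts in WT and 30 and 22 in DF508. Gdf6 was 3.48-fold lower (log2 fold change -1.80 ± 0.31 SE, edgeR adjusted p = 0.0333), and Gdf5, Gdf7 and Fgf8 were listed in no library. The TGF-beta ligand Tgfb3, an inducer of Scx, had 85.2, 112 and 92.7 FPKM in WT and DF508 replicates 1 and 2 (edgeR adjusted p = 0.558).

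Six2 (gene ID 20472) was lower in both DF508 libraries than in WT without passing the threshold. It had 248 counts in WT, 175 in replicate 1 and 186 in replicate 2 after rounding, or 46.8 CPM against 34.4 ± 1.46 CPM in DF508. The DF508 values lay together and below WT, at ratios of 0.713 (counting interval 0.584 to 0.869) and 0.757 (0.623 to 0.92). Its log2 fold change of -0.49 ± 0.14 SE had an edgeR adjusted p of 0.191. The estimates were not whole numbers (247.79, 174.6 and 185.67), so some reads were shared with another gene or copy and the values are uncertain. Its relative Six4 had 4.22 FPKM in WT and 5.11 ± 0.679 FPKM in DF508 (edgeR adjusted p = 0.721, sharing reads).

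Eya1 and Eya2 differed more between the DF508 libraries than DF508 did from WT. Eya1 (gene ID 14048) had 138 counts in WT, 112 in replicate 1 and 169 in replicate 2, so WT lay between the DF508 libraries. The fitted log2 fold change was 0.00 ± 0.25 SE (edgeR adjusted p = 0.997), and its sign turned with the scaling. Eya2 (gene ID 14049) had 70, 42 and 75 counts in the same order, and WT again lay between the DF508 values (log2 fold change -0.29 ± 0.34 SE, edgeR adjusted p = 0.817). Replicate 2 exceeded replicate 1 by 1.51-fold for Eya1 (counting interval 1.18 to 1.93) and by 1.78-fold for Eya2 (1.21 to 2.67). Among 9576 genes with a mean of at least 50 counts, 2.87% differed as far between the DF508 libraries as Eya1 and 1.01% as far as Eya2. Those genes were not matched for depth. Eya1 averaged 139.7 counts and Eya2 62.3, near that floor, so counting error enters these shares. Eya1 shares reads and is uncertain, and the gene length used for FPKM shifted with the estimated transcript mix, from 4354 bases in WT to 4286 and 4304 bases for Eya1 and from 2349 to 2283 bases in both DF508 libraries for Eya2.

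The other Eya genes were higher. Eya4, the highest, had 24.9 FPKM in WT and 20.1 ± 0.021 FPKM in DF508 (log2 fold change -0.35 ± 0.11 SE, edgeR adjusted p = 0.207), and Eya3 had 11.4 FPKM in WT and 12.1 ± 1.25 FPKM in DF508 (edgeR adjusted p = 0.953). Eya1 and Eya2 together with these summed to 47.9, 41.6 and 45 FPKM. The Eya partner Dach1 had 4 counts in WT, 1 in replicate 1 and 0 in replicate 2, and was not tested. Of the 7 tested genes of the list of other Pax-, Six-, Eya- and Dach-family genes none rose or fell (median log2 fold change 0.04, with 5 positive and 2 negative).

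**Figure D3:**
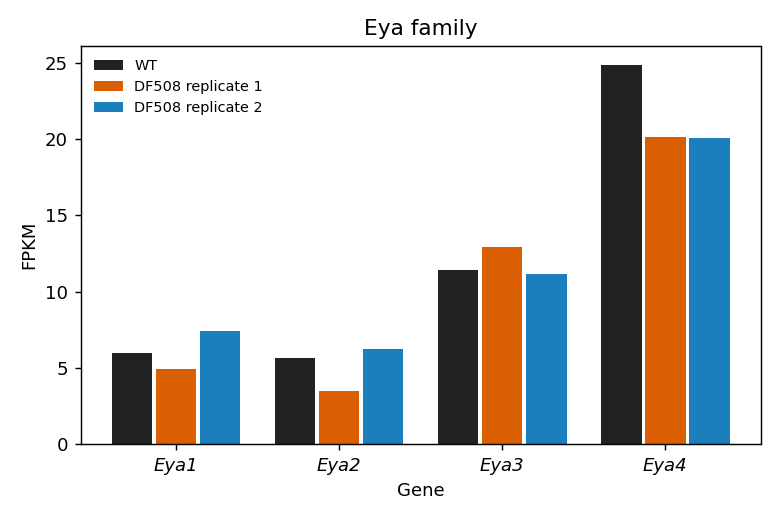
FPKM of the Eya genes in WT (black), DF508 replicate 1 (orange) and DF508 replicate 2 (blue), 1 bar for each library. Eya4 is the highest of its family, and Eya1 and Eya2 are lowest in DF508 replicate 1 and highest in replicate 2.

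Tnmd (gene ID 64103) was highest in a single DF508 library. It had 491 counts in WT, 571 in DF508 replicate 1 and 1007 in DF508 replicate 2, or 92.7 CPM in WT and 109 and 192 CPM in DF508. Both DF508 libraries were above WT, but replicate 1 stood near WT and replicate 2 far from both. The ratio to WT was 1.18 (counting interval 1.04 to 1.33) in replicate 1 and 2.07 (1.86 to 2.31) in replicate 2, and replicate 2 exceeded replicate 1 by 1.76-fold (1.59 to 1.96). The difference between genotypes was not larger than the spread of the DF508 pair, which lay 0.82 apart on the log2 scale (log2 fold change 0.65 ± 0.27 SE, edgeR adjusted p = 0.381). On the normalized library sizes the log2 difference was 0.19 without replicate 2 and 1.00 without replicate 1. Of the 9576 genes with a mean of at least 50 counts, 1.1% differed as far between the DF508 libraries. Replicate 2 was also the library with the highest myeloid marker levels, where the macrophage lysozyme Lyz2 had 390 FPKM against 57.3 FPKM in WT and 82.3 FPKM in replicate 1; the part of this in the Tnmd value was not tested. In such bulk samples fewer cells of a type and less RNA per cell cannot be told apart. Tnmd is X-linked, and the X-inactivation transcript Xist had 1223, 1427 and 1376 CPM while 4 Y-linked genes examined (Ddx3y, Kdm5d, Uty and Eif2s3y) had at most 1 count in any library.

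**Figure D4:**
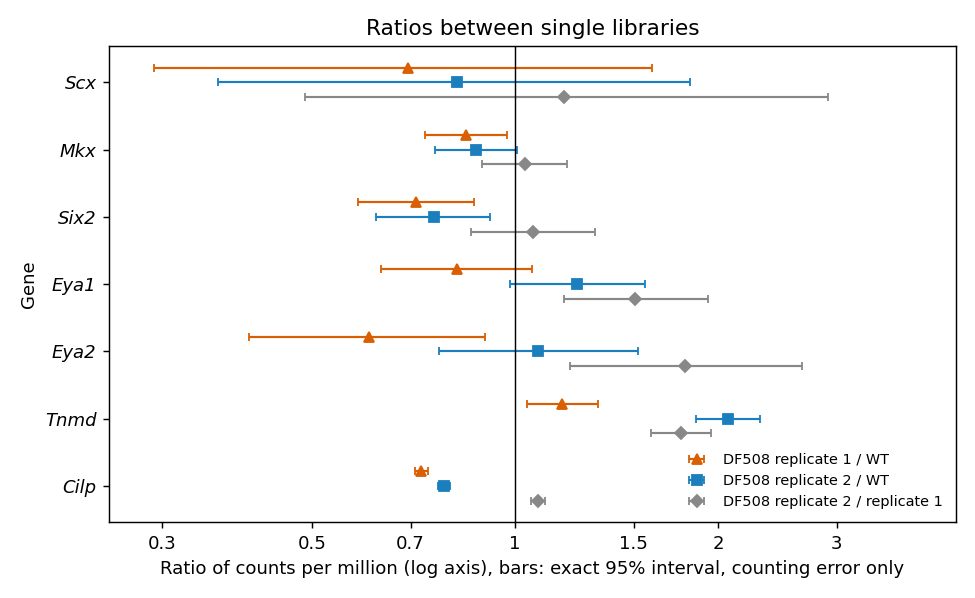
Ratios of CPM between single libraries (log axis) for the 7 listed members: DF508 replicate 1 to WT (orange), DF508 replicate 2 to WT (blue) and DF508 replicate 2 to replicate 1 (grey), with exact 95% intervals for counting error only. For Tnmd, Eya1 and Eya2 the grey interval lies above 1 (1.59 to 1.96, 1.18 to 1.93 and 1.21 to 2.67), as it does more narrowly for Cilp (1.06 to 1.11). For Cilp and Six2 the intervals of both ratios to WT lie below 1.

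Cilp (gene ID 214425) was the most abundant member and the one that passed the threshold. It had 18561 counts in WT, 13337 in DF508 replicate 1 and 14425 in DF508 replicate 2, or 0.35%, 0.254% and 0.275% of all counts. WT was highest and the DF508 libraries lay close to each other, at 3503 CPM in WT and 2647 ± 145 CPM in DF508. Replicate 1 was 1.38-fold lower than WT (counting interval 1.35 to 1.41) and replicate 2 was 1.27-fold lower (1.25 to 1.3). These are ratios to WT of 0.726 and 0.785 on library totals. On the normalized (TMM) library sizes they were 0.705 and 0.76, further from WT and outside the counting intervals, which do not cover the scaling. The DF508 libraries themselves differed by 1.08-fold (1.06 to 1.11), which is beyond counting error for a gene of this depth. Cilp fell by 0.45 ± 0.08 SE on the log2 scale (edgeR adjusted p = 0.0404). The value was negative in all 12 alternative fits, and 5 of them passed the threshold, among them DESeq2's Wald test, limma-voom and edgeR's likelihood ratio test, which called 0.661%, 1.47% and 3.13% of their genes. The adjusted p ranged from 0.0124 with the likelihood ratio test to 0.662 without a filter on low counts, and was 0.0721 with upper-quartile factors and 0.0671 at a mean of at least 50 counts.

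Cilp2 (gene ID 68709), its close relative, was missing from all 3 tables and is taken as 0 counts. The annotation used for counting is not stated and may not hold Cilp2, so no upper limit is given.

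Promoter sequences, here the 250 bases before the annotated start, are shown for Cilp, its unlisted relative Cilp2, and Tnmd, a member with a large difference between the DF508 libraries. They come from RefSeq on GRCm38.p6, a later build than the mm9 of the files, and 4 of the 8 members had an entry that could be used (these and Six2). Capitals mark the E-box CANNTG, the kind of site that helix-loop-helix factors such as Scx bind and which reads the same on both strands, and TATAA on either strand (TTATA on the other).
Cilp, chr9:65264930-65265179, plus strand: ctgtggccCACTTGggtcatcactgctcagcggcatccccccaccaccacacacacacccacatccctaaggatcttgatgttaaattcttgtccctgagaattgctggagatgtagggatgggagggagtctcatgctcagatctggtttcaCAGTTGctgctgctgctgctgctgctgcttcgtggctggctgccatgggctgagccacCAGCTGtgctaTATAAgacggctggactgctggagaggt
Cilp2, chr8:69887393-69887642, minus strand: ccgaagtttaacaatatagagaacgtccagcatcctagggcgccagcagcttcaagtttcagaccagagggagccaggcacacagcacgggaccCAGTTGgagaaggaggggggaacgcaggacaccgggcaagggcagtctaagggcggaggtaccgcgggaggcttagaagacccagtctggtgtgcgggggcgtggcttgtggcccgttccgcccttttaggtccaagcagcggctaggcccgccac
Tnmd, chrX:133850758-133851007, plus strand: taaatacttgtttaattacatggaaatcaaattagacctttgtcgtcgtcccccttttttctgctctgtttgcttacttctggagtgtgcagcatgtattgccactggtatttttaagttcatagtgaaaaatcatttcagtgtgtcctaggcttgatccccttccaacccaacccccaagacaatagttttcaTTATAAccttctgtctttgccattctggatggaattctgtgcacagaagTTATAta

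The Cilp window held 3 E-boxes and 1 TATAA, the latter starting at -28 from the annotated start, and the Cilp2 window held 1 E-box and no TATAA. The Tnmd window held no E-box and 3 matches to TATAA, of which the leading pair overlap. The Six2 window held neither. Over 32851 RefSeq promoter entries of this length 66.2% held an E-box and 22.8% TATAA, so a match describes these letters and not a bound site. The Tnmd window was poor in G and C (38.4%, with 2 CpG pairs), the Cilp window had 56% and 3 CpG pairs, and the Cilp2 and Six2 windows had 62.4% and 64.8% with 15 and 26 CpG pairs, where the median of all entries was 52.4% and 6.

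Other tendon genes outside the members gave a mixed pattern. Of 20 tested tendon markers and matrix genes 2 rose, 1 fell and 17 did not pass (median log2 fold change 0.13). The fibril-associated collagen gene Col14a1 had 10.2 FPKM in WT and 19 and 20.1 FPKM in DF508 replicates 1 and 2, and was 1.85-fold higher (edgeR adjusted p = 0.0112). Decorin, Dcn, a small proteoglycan that binds collagen fibrils, had 390 FPKM in WT and 553 and 596 FPKM in DF508 and was 1.43-fold higher (edgeR adjusted p = 0.0417). The zinc finger factor Egr2, which acts in tendon collagen regulation, had 21 FPKM in WT and 13.6 and 13.9 FPKM in DF508 and was 1.57-fold lower (edgeR adjusted p = 0.0453). Cnmd, the closest relative of Tnmd, was listed in no library.

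**Figure D5:**
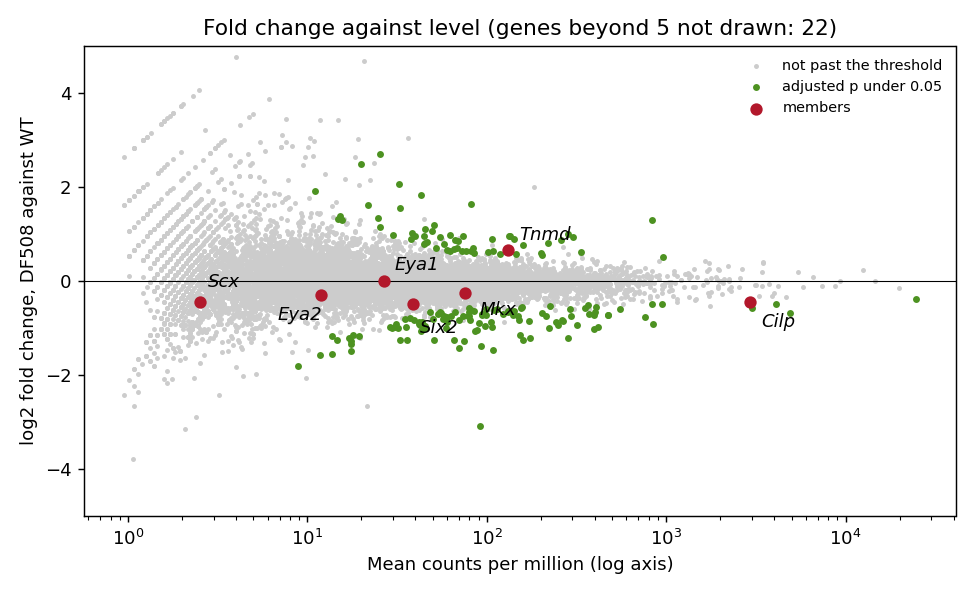
Fitted log2 fold change of DF508 against WT by mean CPM (log axis) for the 12888 genes tested: grey points did not pass the threshold, green points had an adjusted p under 0.05, and red points are the 7 listed members. Cilp lies at the right at -0.45, and Tnmd is the one member clearly above 0, at 0.65, without passing.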

How the data were processed

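One table per library was used, for 1 WT and 2 DF508 libraries. Bowtie, RSEM and mm9 are named in the submitters' processing notes; the versions, annotation and strand setting are not given in the sources used. Per the file headers, each table holds the expected count of a gene as deposited (estimated reads, not normalized), its FPKM as deposited (scaled by the authors for length and depth) and the length itself. Genes missing from a table were set to 0. About 79.4% to 79.8% of listed estimates were whole within 0.005; a gene with an estimate that was not whole shares reads and is called uncertain. Gene IDs were named from a RefSeq table of GRCm38.p6 (16579 of 16621 matched), used only for names and neighbours.

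Expected counts were rounded. Genotype was tested with edgeR's quasi-likelihood test (TMM factors, filterByExpr, all 3 libraries, genotype as the sole term, 1 residual degree of freedom) and Benjamini-Hochberg adjustment over all genes at 0.05. The script was also run on simulated counts in which WT varied like the DF508 pair, so that assumption itself was not checked. CPM and ratios use library totals; exact 95% intervals are Clopper-Pearson on the split of counts and cover counting error only, with no molecular identifiers described. Percentages of genes called are over the genes each test kept. Alternatives were other scalings, filters, DESeq2, limma-voom, the likelihood ratio test, limma-trend on log2-transformed FPKM with 1 or 0.1 added, and each DF508 library left out; a fit without genes sharing reads, and ratios on TMM sizes or FPKM, were added after seeing the data.

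The members and lists were chosen with earlier results of these data known. Named were the 8 members; up to 4 genes past the threshold by fold change in each of 5 pathway lists, or up to 2 by FPKM where none passed; and Six4, Eya3, Eya4 and Dach1 (1 further gene of this rule is not reported here). Tgfb3, Bop1, Xist and the Y-linked genes, and the genes of the closing observations, were chosen after their values were seen. Further marker lists served to check cell types. The versions were 4.0.16 for edgeR, 1.42.0 for DESeq2, 3.58.1 for limma and 4.3.3 for R.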

Additional observations from a re-analysis of the deposited data

How the results depend on the processing

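Against 179 genes called, edgeR called 0 on library totals with no TMM factor (1253 genes at an unadjusted p under 0.05) and 0 without a filter (1123), its likelihood ratio test called 403 and DESeq2's Wald test 65. Limma-trend called 0 on log2(FPKM + 1) and on log2(FPKM + 0.1) at a mean FPKM of at least 1 (1145 and 1159 unadjusted), and 0 on log2(FPKM + 1) without a filter (1615). The number of members called went from 1 to 0 in these 5 fits that called 0 genes, and also to 0 with upper-quartile factors and at a mean of at least 50 counts; the cause was not tested. Eya1 turned to 0.0407 on library totals, 0.0177 with upper-quartile factors, 0.004 at a mean of at least 50 counts, and 0.0293, 0.0299 and 0.0293 in the limma-trend fits. Members at least 1.5-fold from WT numbered 0, and 1 when either DF508 library was left out (Eya2 without replicate 2, Tnmd without replicate 1). Scx, Mkx, Tnmd, Six2 and Eya2 kept their sign and did not pass in any fit with an adjusted p; Scx had none in DESeq2. Leaving out a DF508 library left no residual degree of freedom, so it gave values without a test: Eya1 ranged from -0.33 to 0.26 and Eya2 from -0.76 to 0.07. The order of the 7 members by level was the same from counts per length. No paired analysis was possible because the labels number the DF508 libraries only.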

Other observations

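Some other tendon and matrix genes, named here after their values were seen, were also higher in DF508 replicate 2 than in replicate 1. Keratocan, Kera, a small proteoglycan of cornea and tendon, had 7 counts in WT, 20 in replicate 1 and 85 in replicate 2 and did not pass (log2 fold change 2.85 ± 0.91 SE, edgeR adjusted p = 0.229). Comp, a pentameric matrix protein, had 186, 183 and 280 FPKM (edgeR adjusted p = 0.678), and lumican, Lum, had 88.2, 131 and 168 FPKM (edgeR adjusted p = 0.0646). Of the 20 tested tendon markers and matrix genes outside the members, 10 were highest in replicate 2 and 2 lowest there, against 35.5% and 29.3% of all genes averaging 1 CPM or more. Another 4 were highest in replicate 1, as were 34.9% of those genes, namely Tnc, Col5a1 (sharing reads), Col6a1 and Col12a1. Among them Col12a1 had 298 FPKM in WT, 318 FPKM in replicate 1 and 256 FPKM in replicate 2. The Schwann cell gene Sox10 was low in all libraries and lowest in replicate 2, with 17, 16 and 3 counts.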
